A study of Mus musculus with 6 samples.

Results

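The miR-23, miR-24 and miR-27 miRNAs are cut from 2 clusters of hairpins, an a cluster with miR-23a, miR-27a and miR-24-2 and a b cluster with miR-23b, miR-27b and miR-24-1. They were taken from the table of 689 miRNAs by name, with every letter, copy and strand, which gave 11 miRNAs: miR-23a, miR-23a*, miR-23b, miR-23b*, miR-24, miR-24-1*, miR-24-2*, miR-27a, miR-27a*, miR-27b and miR-27b*. The asterisk marks the strand of a hairpin that was named as the minor one, and the strand without it is the main strand. The miRNA-Seq was done on embryonic mouse cardiomyocytes (EMCMs) of E16.5 wild-type embryos, grown on flexible plates coated with collagen. The labels give 3 static cultures and 3 cultures under cyclic stretch of 16% at 1 Hz, both kept for 24 h. The labels name the Swiss Webster background, while the methods name CD1 mice and a larger number of samples per group.

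The values are 1 abundance per miRNA, taken here as the mean over all libraries, static and stretched together. They thus describe the level of each miRNA in these cultures and not its response to stretch. The depth of each library is unknown, the means carry no replicate error, and no difference between miRNAs could be tested. Each abundance is given as its percentage of all miRNA reads, and each difference between miRNAs as a fold or on the log2 scale. Ligation and amplification of small RNAs differ between sequences, and their part in differences between miRNAs was not tested.

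A miRNA cluster is transcribed as 1 RNA, from which Drosha and then Dicer cut each hairpin into a short duplex. Usually one strand of the duplex is loaded into Argonaute and kept, while the other is degraded, and the seed near the 5′ end of the loaded strand pairs with target mRNAs. The miR-23, miR-24 and miR-27 families are known from vascular cells and from the heart, where miR-23a has been linked to hypertrophic growth, miR-27b to cardiac hypertrophy and miR-24 to the survival of cardiomyocytes.

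The mature sequences below are those of RefSeq (GRCm38.p6), which held 10 of the 11 miRNAs but not miR-23b. They are printed because the clusters are compared through them: the main strands of miR-27a and miR-27b share a seed, and so do the asterisk strands of the copies of miR-24. They are in lower case with the seed, bases 2 to 8, in capitals, and the present-day 3p and 5p names were matched to the older names of the table by the naming convention.
miR-23a (miR-23a-3p): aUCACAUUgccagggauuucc
miR-27a (miR-27a-3p): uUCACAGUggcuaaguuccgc
miR-27b (miR-27b-3p): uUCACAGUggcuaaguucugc
miR-24 (miR-24-3p): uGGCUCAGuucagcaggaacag
miR-23a* (miR-23a-5p): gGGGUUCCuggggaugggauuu
miR-23b* (miR-23b-5p): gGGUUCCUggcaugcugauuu
miR-27a* (miR-27a-5p): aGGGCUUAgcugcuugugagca
miR-27b* (miR-27b-5p): aGAGCUUAgcugauuggugaac
miR-24-2* (miR-24-2-5p): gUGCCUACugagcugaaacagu
miR-24-1* (miR-24-1-5p): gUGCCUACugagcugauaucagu

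miR-27a and miR-27b have the same bases at 20 of 21 positions and differ by C19U, counted from 1 at the 5′ end with the base of miR-27a first. Their first 18 bases are thus identical, and the shortest tags that the authors kept were 18 nt, so a tag of that length from the 5′ end fits both miRNAs. How many reads were that short is unknown. The asterisk strands of the same hairpins differ more, at 8 of 22 positions, and G3A lies in the seed, so miR-27a* and miR-27b* have different seeds. The sequence of miR-23a* read from base 2 matches that of miR-23b* from base 1 over 10 bases, so their seeds are also different. miR-24-2* and miR-24-1* share a seed and their first 16 bases, and a tag of 18 nt tells them apart. For miR-23a and miR-23b, seeds, shared bases and tags that fit both were not assessed, since the sequence of miR-23b was missing. Over the mature miRNAs of RefSeq, 4 others carry the seed of a listed strand, that of miR-24, and 0 of these 4 were among the 689 miRNAs of the table.

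miR-27b was by far the most abundant of the 11 miRNAs, with 7.49% of all miRNA reads, and only 3 miRNAs of the table exceeded it. The most abundant, miR-22, held 20.6%, and miR-99b, the one directly above miR-27b, held 11.7%. Directly below came miR-127 with 7.19%, a difference of 0.06 on the log2 scale from miR-27b that cannot be judged without a replicate error. Together the 11 miRNAs made up 8.21% of the reads, of which miR-27b accounted for 91.2%. The other 10 summed to 0.721%.

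All 5 main strands were among the 100 most abundant miRNAs. miR-27a held 0.328% and ranked 31st of 689. miR-23a, at 0.116% and rank 56, and miR-24, at 0.108% and rank 58, were 1.08-fold apart. miR-23b was the lowest of the main strands, with 0.0572% and rank 78. By family, the main strands of miR-27 summed to 7.82%, those of miR-23 to 0.173% and miR-24 to 0.108%.

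The 6 asterisk strands summed to 0.112% of the reads and spanned a far wider range. The highest, miR-24-2*, held 0.0856% at rank 65, above the main strand miR-23b. miR-27b* held 0.0185% and miR-27a* 0.00612%, at ranks 123 and 178. miR-24-1* was at 0.00171%, rank 261. The strands of the miR-23 hairpins were the rarest and the only members under the median of all miRNAs, which was 0.000422%. miR-23b* held 0.000156% and miR-23a* 1.48e-05%, at ranks 417 and 591. The latter lies next to miR-466m-3p at rank 590 and miR-1969 at rank 592. Apart from 25 miRNAs whose values lie 11.1 log2 units under the rest, the lowest mean in the table was 1.83 log2 units under that of miR-23a*. Those 25 values may not be measured levels, and how they arose was not tested. They still count in the ranks and in the median of all miRNAs. The number of reads behind the mean of miR-23a* is unknown.

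**Figure D1:**
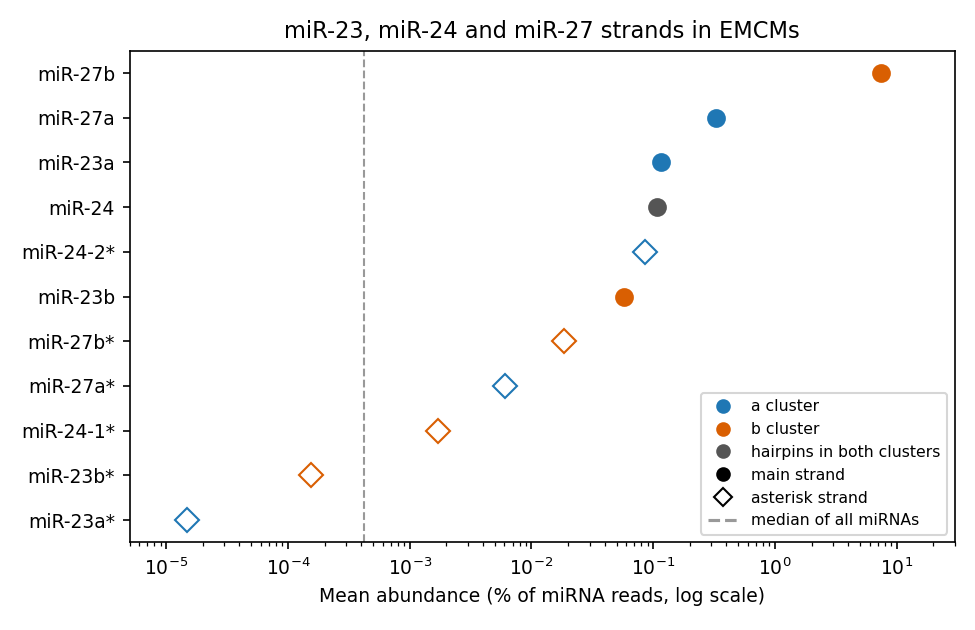
Mean abundance of the 11 miRNAs over all libraries, in percent of all miRNA reads on a log axis, with the a cluster in blue, the b cluster in orange and miR-24, whose hairpins lie in both, in grey. Filled circles are main strands, open diamonds asterisk strands, and the dashed line is the median of 689 miRNAs, above which 9 of the 11 lie.

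In GRCm38 the a cluster lies on the plus strand of chromosome 8 and spans 404 bases, with Mir23a at chr8:84208518-84208592, Mir27a at chr8:84208672-84208758 and Mir24-2 at chr8:84208815-84208921. No protein-coding gene of the GENCODE annotation overlaps it, and a lincRNA, Gm26532, starts within the last 2 bases of Mir24-2. The b cluster lies on the plus strand of chromosome 13 and spans 792 bases, with Mir23b at chr13:63300484-63300557, Mir27b at chr13:63300712-63300784 and Mir24-1 at chr13:63301208-63301275. It is inside the protein-coding gene 2010111I01Rik (Aopep), which encodes an aminopeptidase, and opposite to an intron of Fancc. Mir23b is intronic in all 9 transcripts of Aopep that span it. Mir27b is intronic in 8 of 9 and exonic in 1, where it lies in an untranslated region, and Mir24-1 overlaps an exon in 4 of 11. The order of the hairpins is the same in both clusters, but Mir27b and Mir24-1 are 423 bases apart and Mir27a and Mir24-2 only 56.

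Along both clusters the middle hairpin gave the most abundant main strand, to very different extents. In the a cluster, miR-27a was 2.83-fold above miR-23a and 3.05-fold above miR-24. In the b cluster, miR-27b was 131-fold above miR-23b, a difference of 7.03 on the log2 scale, against 1.50 between miR-27a and miR-23a. For comparison, 44 pairs of neighbouring hairpins in the table lie within 1000 bases on the same strand and have names of a single copy. Each hairpin was taken at its more abundant strand, and the median difference of these pairs was 2.24 on the log2 scale. The pair of Mir23b and Mir27b had the fourth widest difference of the 44, and 14 pairs were closer in abundance than Mir23a and Mir27a. Main strands of the same cluster thus differed in level in both clusters.

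**Figure D2:**
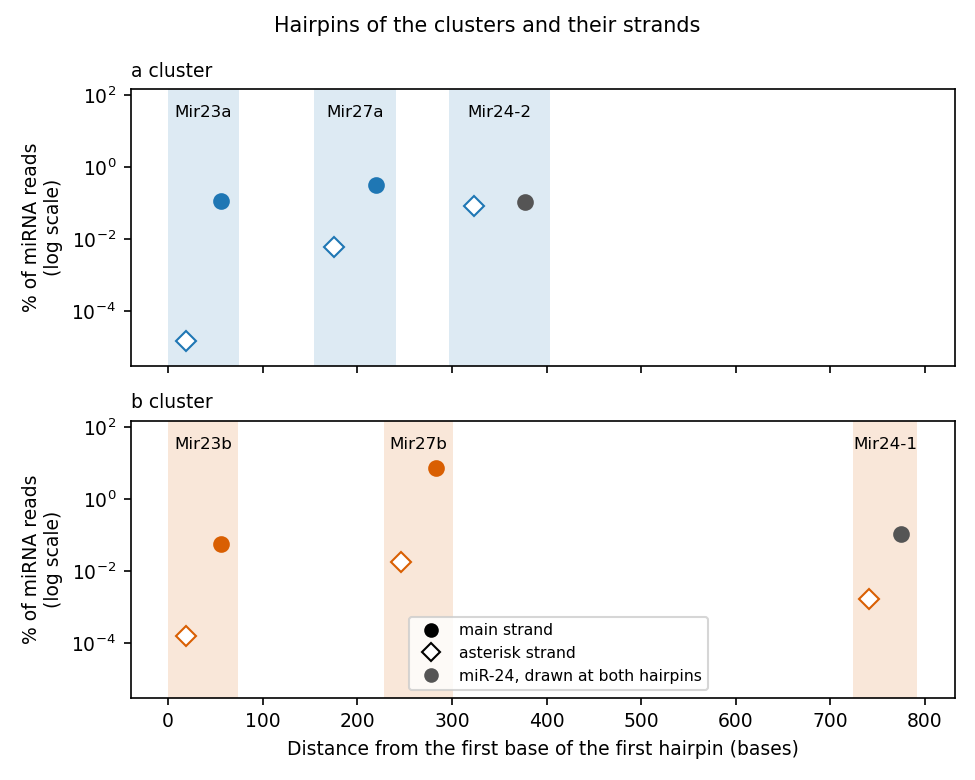
The hairpins of the a cluster (top) and the b cluster (bottom), drawn to scale from the first base of the first hairpin, with the mean abundance of their strands in percent of all miRNA reads on a log axis. Filled circles are main strands, open diamonds asterisk strands, and the grey circle is miR-24, a single value of 0.108% drawn at both hairpins; miR-27b stands above all other strands.

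The main strands of the b cluster, miR-23b and miR-27b, summed to 7.55% of the reads and those of the a cluster, miR-23a and miR-27a, to 0.444%, a 17.0-fold difference (4.09 on the log2 scale). This rests on miR-27 alone. miR-27b was 22.8-fold above miR-27a and made up 95.8% of their sum, while miR-23b was 2.03-fold under miR-23a and made up 33.0% of theirs. Neither cluster was therefore higher throughout, though reads that fit both miR-23a and miR-23b were not assessed. The asterisk strands also went either way, pair by pair: miR-27b* was 3.02-fold above miR-27a* and miR-23b* 10.6-fold above miR-23a*, while miR-24-1* of the b cluster was 50.2-fold under miR-24-2* of the a cluster. Their sum, which unlike that of the main strands includes the copies of miR-24, was higher in the a cluster, with 0.0917% of the reads against 0.0203% in the b cluster, and miR-24-2* made up most of it. For miR-23 the strands of 1 hairpin pair went opposite ways, with the main strand higher from the a cluster and the asterisk strand higher from the b cluster. The asterisk part rests on miR-23a* and miR-23b*, the only members under the median of all miRNAs, with unknown numbers of reads.

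These gaps were set against all 39 pairs of the table whose names differ by the letters a and b only, strand for strand. The b member was higher in 15 pairs and the a member in 24, and the median size of the difference was 2.11 on the log2 scale, or 4.31-fold. The difference of 4.51 between miR-27b and miR-27a was the ninth widest of the 39, and 3 pairs had a larger one with b above a, the pairs of miR-15*, miR-99 and miR-130*. That between miR-23a and miR-23b, 1.02, was narrower than the median, and 9 pairs were narrower still. For the asterisk strands, the differences were 3.40 for miR-23 and 1.59 for miR-27.

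**Figure D3:**
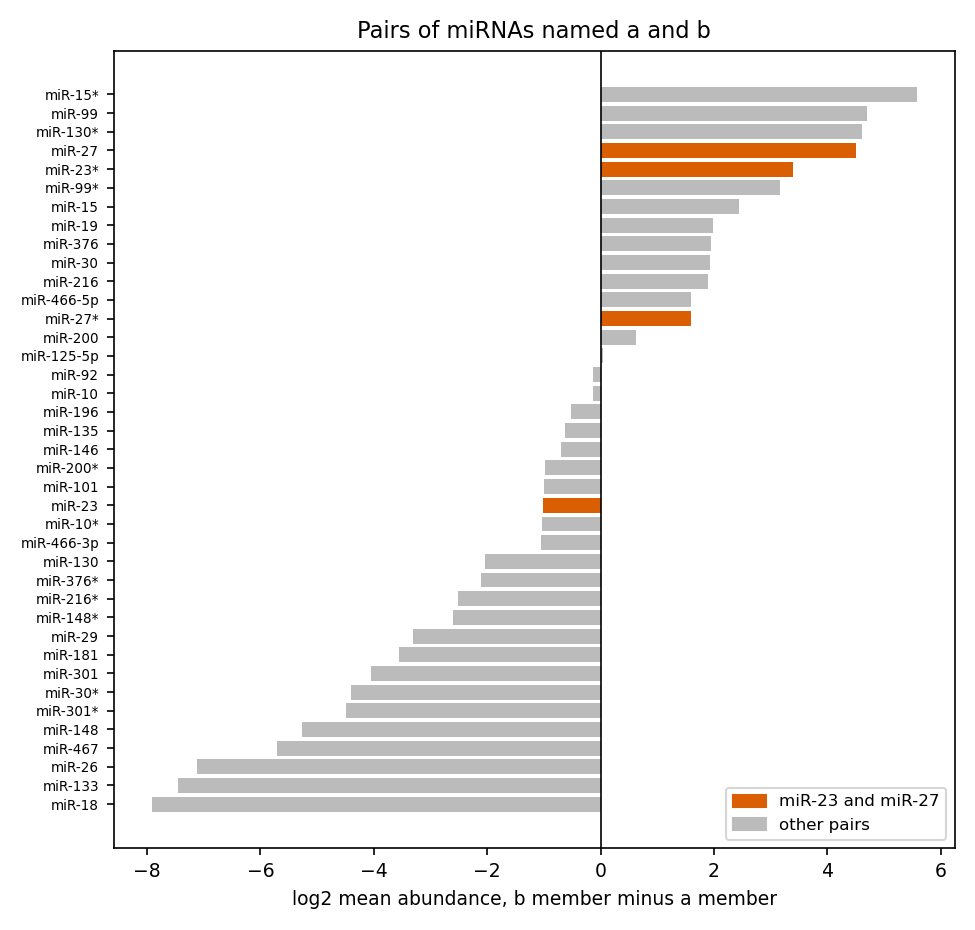
Log2 mean abundance of the b member minus that of the a member for 39 pairs of miRNAs named a and b, with asterisk strands as pairs of their own. Bars in orange are miR-23 and miR-27: 3 of the 4 point to the b member, with miR-27 at 4.51, and miR-23 points to the a member at -1.02.

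miR-24 could not be assigned to either cluster. The hairpins of its copies are shown with both mature arms in capitals, the 5p arm first, because their 3p arms are the same 22 bases while their 5p arms differ.
Mir24-2 (a cluster): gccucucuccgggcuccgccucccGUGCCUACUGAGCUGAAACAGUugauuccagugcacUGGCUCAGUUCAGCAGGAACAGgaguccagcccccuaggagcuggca
Mir24-1 (b cluster): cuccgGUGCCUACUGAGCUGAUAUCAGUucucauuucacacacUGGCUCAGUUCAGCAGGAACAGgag

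The 5p arms, miR-24-2* and miR-24-1*, are the only measured strands of these hairpins that belong to 1 locus. miR-24-2* accounted for 98.0% of their sum, and it lay 0.33 on the log2 scale, or 1.26-fold, under miR-24 itself, whereas miR-24-1* was 63.1-fold under it. Among the 211 asterisk strands of the table, miR-24-2* was the second most abundant after let-7d* at 0.0949%. The table holds 15 miRNAs with asterisk strands from a copy 1 and a copy 2. In 5 of these, 1 copy was among the 25 miRNAs that stand apart at the low end, and in the other 10 the median difference was 2.69 on the log2 scale, with 1 pair, let-7f, wider apart than the copies of miR-24 at 5.65. Whether a read of the shared strand was counted once or at each hairpin is not given in the sources used here. On the opposite strand, both Mir24 hairpins overlap an annotated hairpin of miR-3074. miR-3074-5p is complementary to miR-24 over 20 bases, and held 5.69e-05% of the reads. The other miR-3074 strand of the table, miR-3074-1-3p, held 6.88e-05%.

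The hairpins of miR-27 are printed in the same way, with the 5p arm first, since they gave the widest gap between main strands of the clusters. The C19U difference is in the last capitals.
Mir27a (a cluster): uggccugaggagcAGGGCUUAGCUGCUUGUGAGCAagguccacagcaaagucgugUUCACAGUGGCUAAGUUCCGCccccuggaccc
Mir27b (b cluster): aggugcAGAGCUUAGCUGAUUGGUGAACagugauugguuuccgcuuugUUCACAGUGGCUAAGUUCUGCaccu

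Each of the main strands of miR-23, miR-24 and miR-27 is the 3p arm, and each exceeded its 5p arm. The main strand was 406-fold above the asterisk strand for miR-27b and 53.7-fold for miR-27a, and 366-fold for miR-23b against 7833-fold for miR-23a. The last fold rests on the very low value of miR-23a*. Over 205 pairs of a main and an asterisk strand in the table, the median difference was 5.75 on the log2 scale, the value of the miR-27a pair. In 13 of these pairs a strand was among the 25 miRNAs that stand apart at the low end, and without them the median was 5.31. The differences of these 13 pairs rest on values that may not be measured levels, and the median of 5.75 includes them. Ordered by main minus asterisk strand, the pair of miR-24 and miR-24-2* was the 19th from the low end. There, 16 pairs had the asterisk strand above the main one. miR-23a was at the other end, with 20 pairs wider apart. Among these were all 13 pairs with a strand that stands apart at the low end. The b cluster's pairs of miR-23 and miR-27 were close to each other, at 8.52 and 8.66, and those of the a cluster were far apart, at 12.9 and 5.75.

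**Figure D4:**
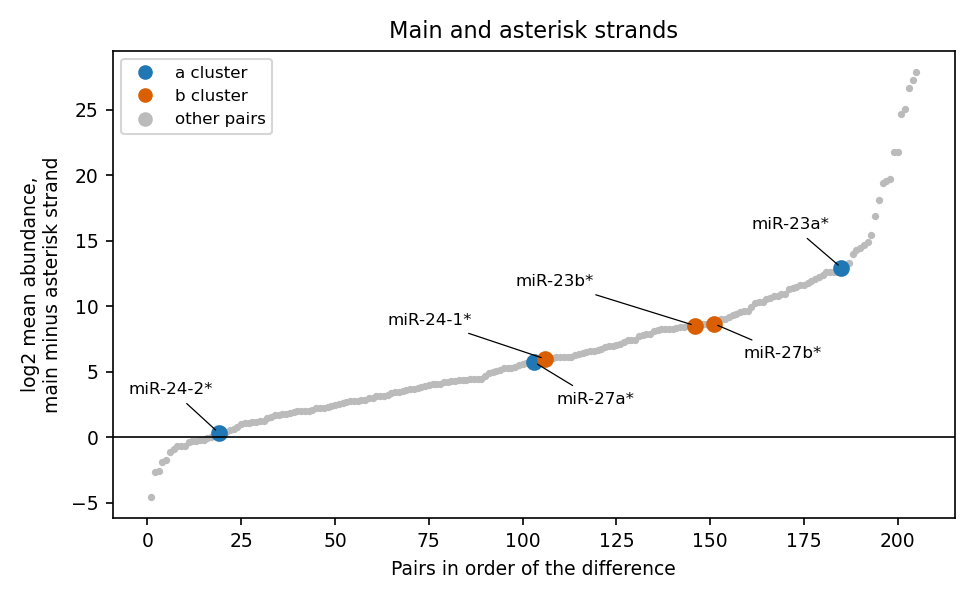
Log2 mean abundance of the main strand minus that of the asterisk strand for 205 pairs, in order of the difference, with the a cluster in blue and the b cluster in orange. miR-24-2* is close to 0, at 0.33, and miR-23a* is furthest up among the 6 marked pairs, at 12.9.

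miR-128, chosen here after its value was seen, carries the miR-27 seed shifted by 1 base and held 0.0268% of the reads, far under miR-27b. The cultures are labelled as cardiomyocytes. The 8 strands of the cardiomyocyte list (miR-1a, miR-133a, miR-133b, miR-208a, miR-208b and miR-499) held 1.51% of the reads in sum, most of it miR-208b at 1.18%. The others were lower: miR-133a held 0.187%, miR-208a-3p 0.0750%, miR-1a 0.0397%, miR-499 0.0215%, miR-208a-5p 0.0119%, miR-133b 0.00107% and miR-499* 6.10e-05%. All strands of this list and of the other lists are named in the table, which does not show that each was detected. Some asterisk strands of these miRNAs, such as miR-133a* and miR-208b*, are in the table but were not on the lists. miR-143, a smooth muscle miRNA, was the second most abundant miRNA with 13.4%, and miR-145, its cluster partner, was at 0.0697%. The endothelial miR-126 strands summed to 0.479%, most of it miR-126-5p at 0.466% against miR-126-3p at 0.0130%. The 3 fibroblast strands summed to 0.441%, and those of leukocytes, epithelium and red blood cells to 0.00812%, 0.00455% and 0.000132%. The part of other cells in the levels of miR-23, miR-24 and miR-27 was not tested, and more cells of a type and more miRNA per cell cannot be told apart in whole cultures.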

How the data were processed

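Small RNA of EMCMs was sequenced by the authors (TruSeq Small RNA libraries, HiSeq2500). In the methods, the authors kept tags from 18 nt, mapped them to the mouse genome with Bowtie2, summed the hits per miRNA and used edgeR for expression levels, while the submitters' processing notes list Bowtie2 and DESeq. The genome build, the miRNA annotation and versions are not given in the sources used here. Per miRNA, the authors deposited 1 abundance, which is not defined in the sources used here. It was taken as a mean over all libraries because its name holds no sample or group. Log2 units were assumed: 2 to the power of these values sums to 0.995 over 689 miRNAs. The other 4 columns hold the authors' comparison of stretched with static cultures (log2 fold change, signed fold change, P value and FDR) and were not used, so no response to stretch is given. The depth per sample is unknown.

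The percentage of reads was taken as 2 to the power of the abundance over its sum. It is approximate if the abundance, named logConc, is a mean formed on the log scale. Differences were taken strand for strand between names with the letters a and b, between main and asterisk strands, between copies and between hairpins within 1000 bases. All are descriptions without a test. The percentages, the a and b pairs, the main and asterisk pairs, the copies and the gap at the low end were tested on simulated data. The neighbouring hairpins, ranks, cluster sums and sequence comparisons were not. Sequences and hairpin positions came from RefSeq (GRCm38.p6) and overlaps from GENCODE vM21 (GRCm38). Members and lists were chosen with earlier results of these data known. Named are the members, their neighbours in rank, miRNAs sharing a seed, the most abundant miRNA and cell type markers; further miRNAs were picked once their values were known. Alternatives were other sums and ranks, other ways to assign miR-24 and other sets of pairs. Python 3.11.15, numpy 2.4.6, pandas 2.3.3 and matplotlib 3.10.9 were used.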

Additional observations from a re-analysis of the deposited data

How the results depend on the processing

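The 11 miRNAs held 8.21% of the reads, 10.3% without miR-22 in the sum and 8.24% with each set of miRNAs of identical value counted once. Their main strands held 8.10%, or 8.17% of the reads of main strands. miR-27b was at rank 4 under each of 3 other ways to rank. These could not move it, since the miRNAs above it are main strands with distinct, high values. The excess of the b over the a cluster, 4.09 on the log2 scale, was 3.82 with asterisk strands added, 3.93 with miR-24 split equally, 3.78 with miR-24 split by its asterisk strands, 3.77 with all of miR-24 in the a cluster, 4.11 with all of it in the b cluster and 1.75 as the mean of the log2 differences. It was reversed for miR-23 alone, at -1.02, since it rests on miR-27b. The median over a and b pairs, 2.11, was 2.45 in the 23 pairs with both members above the median abundance. The median over main and asterisk pairs, 5.75, was 3.35 in the 76 pairs with both strands above the median abundance and 5.31 without the 25 miRNAs that stand apart at the low end, a setting chosen after seeing the data. No paired analysis was possible because each miRNA has 1 abundance and none per sample, and for the same reason no replicate was left out. The depth is unknown, and miR-23a* and miR-23b* had the lowest values of the 11 miRNAs.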
